A study of Canis lupus familiaris with 17 samples.

Results

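Inflammasome and Toll-like receptor genes were followed across the circulating leukocytes of dogs. The genes were chosen by symbol, as the rows of the feature table that carry a name on a list of 9: NLRP3, MEFV, CASP1, CASP12, TLR2, TLR4, TLR7, TLR8 and PYCARD. Of these, 7 matched a row among 20257 genes, each exactly once: NLRP3 (ENSCAFG00000010686), MEFV (ENSCAFG00000024473), PYCARD (ENSCAFG00000016865), CASP12 (ENSCAFG00000014864), TLR2 (ENSCAFG00000008351), TLR4 (ENSCAFG00000003518) and TLR7 (ENSCAFG00000011698). CASP1 and TLR8 were not analysed here. The row CASP4 (ENSCAFG00000014860) carries CASP1 as a synonym in the RefSeq gene table of another dog assembly, so CASP4 was followed with the other genes of the pathway and was not counted as CASP1.

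The cells came from the blood of 17 client-owned pet dogs of genotype Wt, 7 healthy and 10 with treatment-naïve osteosarcoma (OS), a malignant bone tumour. The healthy dogs were 7 to 9 years old (4 females, 3 males) and the dogs with OS were 6 to 12 years old (4 females, 6 males). Leukocytes were taken from EDTA blood over a Ficoll density gradient, which keeps mononuclear cells and the low-density part of the granulocytes, and were sequenced as one 10x Genomics droplet library per dog. Each dog is therefore a replicate, and the dogs are of mixed breeds, ages and sexes.

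Inflammasomes are cytosolic complexes in which a sensor recruits the adaptor ASC, the product of PYCARD, and through it an inflammatory caspase that cleaves the precursors of interleukin-1β and interleukin-18. NLRP3 senses ion efflux, crystals and other signs of cell damage, while pyrin, encoded by MEFV, responds to the loss of RhoA activity caused by bacterial toxins. Toll-like receptors sit upstream, at the plasma membrane (TLR2 for lipoproteins, TLR4 with its partner MD-2 for lipopolysaccharide) or in endosomes (TLR7 for single-stranded RNA), and signal through MYD88 to NF-κB, which raises the transcription of NLRP3 and IL1B in myeloid cells.

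The matrices held 93013 barcodes, of which 80407 cells were clustered after limits on genes, UMIs (unique molecular identifiers, 1 per captured RNA molecule) and mitochondrial share and after the removal of doublets. Libraries held 7740230 to 56510134 UMIs, and any 2 of them shared 0 to 22 barcodes. Clusters were named from marker lists, so that each name below stands for cells that resemble that type. None of the 7 genes, and no other gene of the pathway list, took part in the clustering or the naming. The groups were 4933 neutrophils, 12948 other monocytes, 1255 cells resembling monocytic myeloid-derived suppressor cells (M-MDSC), 1188 dendritic cells, 7021 B cells and 44253 T and NK cells. M-MDSC in this sense are monocytes that carry transcripts such as LTF, S100A12, CSF3R and CD4, and the study itself listed MEFV, IL1B and IL18 among the genes that describe them in these same dogs. The higher levels of these 3 genes in M-MDSC are therefore no independent evidence. Marker sums followed the names, which is no check on them, since the same lists gave the names. The neutrophil list summed to between 51540 and 93080 UMIs per 1000000 UMIs (CPM) in neutrophils, to between 15160 and 26780 CPM in M-MDSC and to between 4263 and 6325 CPM in other monocytes. In M-MDSC the monocyte list reached 19960 to 29440 CPM, against 22920 to 37790 CPM in other monocytes. One healthy dog, healthy 7, stood apart with 37.0% neutrophils against 1.60% to 6.30% in the other healthy dogs, and supplied 1693 of the 4933 cells of that class.

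Levels are given as CPM of the UMIs summed over a dog's cells of a class, with the mean ± SD over dogs with at least 25 such cells. That left 17 dogs for neutrophils, other monocytes, B cells and T and NK cells, 16 dogs for M-MDSC and 14 dogs for dendritic cells. A typical neutrophil held 1667 UMIs, a typical M-MDSC 6191 and a typical other monocyte 11750. CPM is a share of a cell's captured RNA, and because of this difference in UMIs per cell the UMIs per 100 cells are given as a second scale where neighbouring classes change places. Apart from those given below, this happened for MEFV in T and NK cells and dendritic cells, both near 0.

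NLRP3, the sensor of the canonical inflammasome, was highest by CPM in neutrophils and monocytes. Its level in neutrophils ran from 364 through a median of 648 to 1023 CPM (mean 670 ± 183, n = 17). M-MDSC lay between 359 and 857 CPM with a median of 575 (mean 583 ± 109, n = 16), and other monocytes between 316 and 475 CPM with a median of 375 (mean 377 ± 46.9, n = 17). The ranges of these 3 classes overlapped across dogs, but within a dog M-MDSC were above other monocytes in 16 of 16. By CPM, dendritic cells held less (mean 121 ± 31.4, n = 14), and their highest dog, at 167 CPM, was below every dog of the 3 classes above. NLRP3 was low in lymphocytes, at 2.35 ± 1.90 CPM in B cells and 1.46 ± 1.07 CPM in T and NK cells. A UMI of NLRP3 was found in 93.6% of other monocytes, 56.1% of the shallower neutrophils and 53.0% of dendritic cells. The shares were 0.916% of B cells and 0.783% of T and NK cells. At an equal depth of 1000 UMIs per cell the shares were 42.0% of neutrophils, 42.1% of M-MDSC, 31.4% of other monocytes and 9.56% of dendritic cells.

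The order of the classes was tested between neighbours with an exact two-sided sign-flip test over dogs of log2(CPM + 1), adjusted over the 35 neighbour pairs of all 7 genes. For NLRP3 the neutrophils and the M-MDSC did not differ beyond their spread (12 of 16 dogs higher in neutrophils, adjusted p = 0.113), and neither did B cells and T and NK cells (adjusted p = 0.0599), whereas M-MDSC exceeded other monocytes (adjusted p = 0.000119), which exceeded dendritic cells (adjusted p = 0.000267). Counted per cell the order of neutrophils, M-MDSC and other monocytes turned, with 116.5, 368.5 and 440.5 UMIs of NLRP3 per 100 cells. Dendritic cells were not tested against neutrophils per cell. A typical dendritic cell held 15325 UMIs against 1667 in a neutrophil, so a lower CPM in dendritic cells does not mean fewer UMIs of NLRP3 per cell. On that scale the 17 dogs ranged from 61.5 to 221 in neutrophils and from 332 to 574 in other monocytes, with no overlap.

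**Figure D1:**
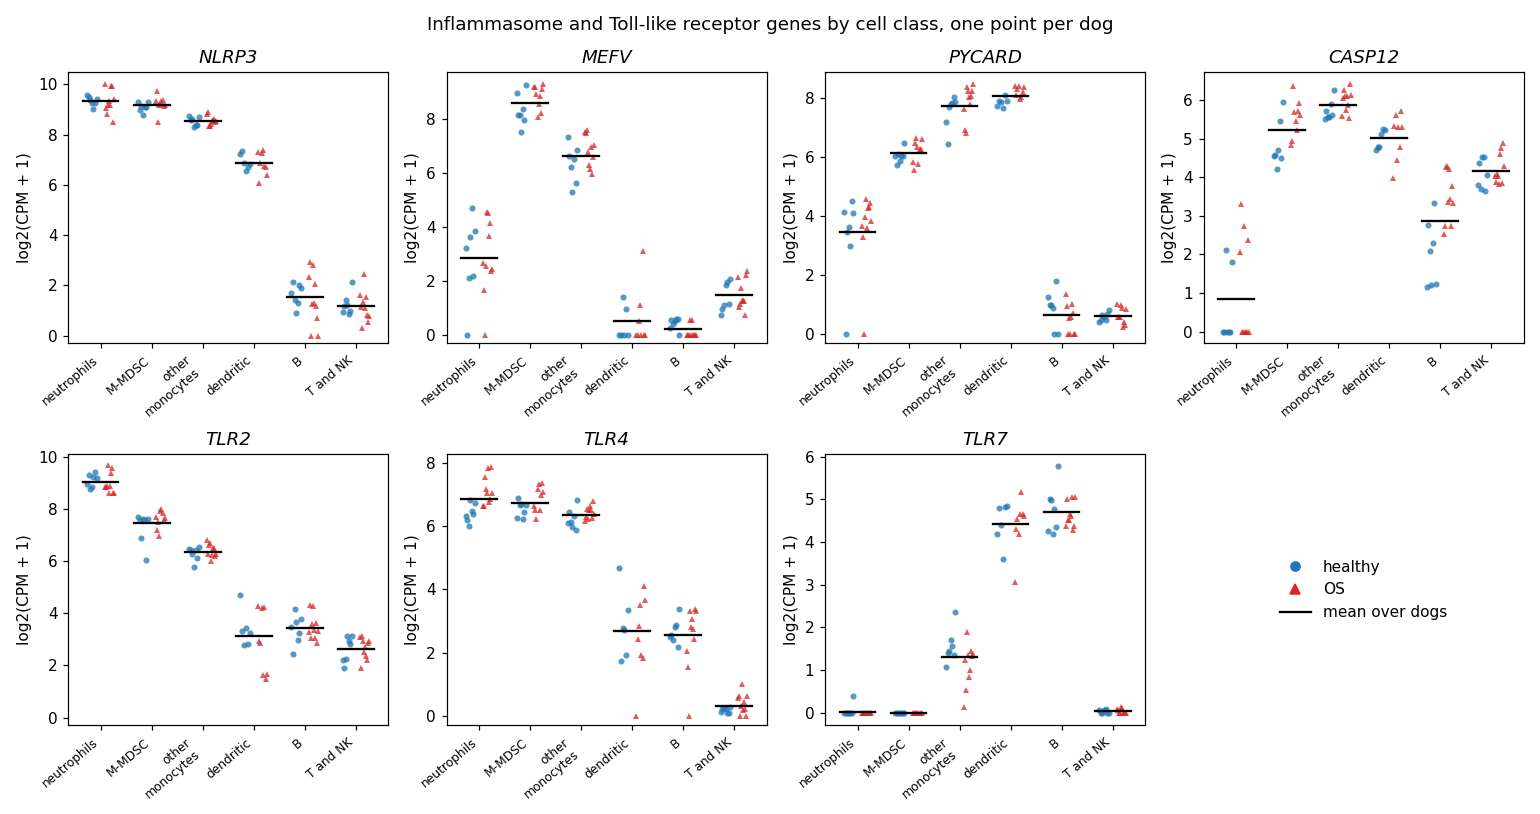
Level of each gene as log2(CPM + 1) in 6 leukocyte classes, with circles for healthy dogs, triangles for dogs with OS and a bar at the mean of the plotted values over dogs. NLRP3, TLR2 and TLR4 were highest in neutrophils and monocytes, MEFV in M-MDSC (mean 412 CPM), PYCARD in dendritic cells and other monocytes (means 268.5 and 223 CPM), and TLR7 in B cells and dendritic cells (means 26.1 and 21.7 CPM).

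MEFV was highest in M-MDSC. Its level in M-MDSC was 181 CPM in the lowest dog, 414 in the median and 617 in the highest (mean 412 ± 146, n = 16). Other monocytes had 38.6, 96.8 and 190 CPM in the same order (mean 108 ± 46.7, n = 17), and M-MDSC exceeded them in every dog with both classes. In neutrophils MEFV reached no more than 25.1 CPM in any dog (mean 9.35 ± 8.11) and was at 0 in 2 of 17 dogs, although neutrophils share marker genes such as CSF3R and S100A12 with M-MDSC. Dendritic cells (mean 0.842 CPM) and B cells (mean 0.2 CPM) were at or near 0 in most dogs, with 9 of 14 dogs listed at 0 in dendritic cells. Of the 5 neighbour pairs, the last, dendritic cells and B cells, did not differ (adjusted p = 0.442). The order of the top classes held per cell, with 260 UMIs of MEFV per 100 M-MDSC, 126 per 100 other monocytes and 1.57 per 100 neutrophils.

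PYCARD, whose product ASC links the sensors to caspase-1, was highest in dendritic cells and other monocytes. Dendritic cells held 198 to 334 CPM with a median of 265 (mean 268.5 ± 46.0, n = 14), and other monocytes 85.1 to 348 CPM with a median of 223 (mean 223 ± 75.7, n = 17). These 2 classes did not differ beyond their spread (higher in dendritic cells in 9 of 14 dogs, adjusted p = 0.163). M-MDSC lay lower, between 46.4 and 98.6 CPM (mean 70.2 ± 16.02, n = 16), and neutrophils lower still, between 0 and 22.7 CPM (mean 13.1 ± 6.72, n = 17). Each of the steps from other monocytes to M-MDSC, to neutrophils and to B cells passed the test (adjusted p = 0.000119, 0.000119 and 0.000194). Within the dendritic cells the level was carried by the conventional type, at 403 ± 65.9 CPM (n = 11), against 37.4 ± 13.5 CPM (n = 8) in plasmacytoid and pre-dendritic cells, without overlap between dogs. Lymphocytes were close to 0, with 0.700 CPM in B cells and 0.560 CPM in T and NK cells.

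CASP12, an inflammatory caspase, was highest in other monocytes, with 44.6 to 83.8 CPM and a median of 57.25 (mean 58.9 ± 12.7, n = 17). M-MDSC ranged from 17.6 to 80.5 CPM with a median of 39.7 (mean 40.0 ± 17.7, n = 16), and dendritic cells from 14.7 to 51.2 CPM (mean 33.0 ± 10.2, n = 14). These 2 overlapped widely and did not differ (adjusted p = 0.236), and per cell dendritic cells came before M-MDSC (47.1 against 23.5 UMIs per 100 cells, in 12 of 13 dogs). T and NK cells held CASP12 at 11.47 to 28.4 CPM (mean 17.6 ± 5.18, n = 17), above B cells (mean 8.06 ± 5.77) in 15 of 17 dogs and above neutrophils, where 11 of 17 dogs were at 0 (mean 1.63 ± 2.62). A UMI was found in 8.16% of T and NK cells and in 0.272% of neutrophils, which differ in depth (5284 and 1667 UMIs per cell). At 1000 UMIs per cell the shares were 1.67% and 0.227%, against 0.878% of B cells and 0.0733% of eosinophils and basophils, the class with the lowest share. Of the 2374 eosinophils and basophils, 638 lay under that depth, against 98 of 4933 neutrophils. CASP12 and CASP4 are related caspase genes, and how the counting treated reads that fit both is not given in the sources used here.

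TLR2, the lipoprotein receptor, fell stepwise from neutrophils to monocytes. Neutrophils held 386 to 827 CPM with a median of 473.5 (mean 539 ± 136, n = 17). M-MDSC held 64.5 to 252 CPM with a median of 194 (mean 183 ± 48.5, n = 16), and other monocytes 53.9 to 111 CPM with a median of 84.1 (mean 82.6 ± 14.5, n = 17). The lowest neutrophil sum was above the highest M-MDSC sum, and M-MDSC were above other monocytes in 15 of 16 dogs. Both steps passed the test (adjusted p = 0.000119 and 0.000194). Below them B cells (10.5 ± 4.16 CPM), dendritic cells (9.74 ± 7.09 CPM) and T and NK cells (5.50 ± 1.81 CPM) did not differ from the neighbour in the order (adjusted p = 0.236 and 0.271). Per cell the order of the top classes changed, with 92.8 UMIs per 100 neutrophils, 115 per 100 M-MDSC and 97.5 per 100 other monocytes, and M-MDSC were above neutrophils in 14 of 16 dogs. Dendritic cells also passed B cells on that scale (13.8 against 4.48 UMIs per 100 cells, in 11 of 14 dogs).

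TLR4, the lipopolysaccharide receptor, was more even across neutrophils, M-MDSC and other monocytes. Its level ranged from 63.8 to 236 CPM in neutrophils (median 108, mean 123 ± 51.1, n = 17), from 74.3 to 163 CPM in M-MDSC (median 101, mean 109 ± 29.1, n = 16) and from 58.6 to 112 CPM in other monocytes (median 79.2, mean 82.4 ± 15.7, n = 17). All 3 ranges overlapped. Neutrophils and M-MDSC did not differ (10 of 16 dogs higher in neutrophils, exact p = 0.436 before adjustment), and M-MDSC exceeded other monocytes in 12 of 16 dogs (adjusted p = 0.00295). The drop to dendritic cells was wide (mean 7.51 ± 6.64 CPM, lower in 14 of 14 dogs, adjusted p = 0.000267). Per cell, other monocytes came first with 96.5 UMIs of TLR4 per 100 cells, against 66.9 in M-MDSC and 20.9 in neutrophils.

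TLR7, the endosomal receptor for RNA, was measured mainly in B cells and dendritic cells. B cells held 17.2 to 53.8 CPM with a median of 23.4 (mean 26.1 ± 8.99, n = 17). Dendritic cells held 7.33 to 35.4 CPM with a median of 22.95 (mean 21.7 ± 7.16, n = 14), and did not differ from B cells (adjusted p = 0.223). Per cell they held more, 31.8 UMIs of TLR7 per 100 cells against 11.1 in B cells (higher in 13 of 14 dogs). Plasmacytoid cells, the classical type I interferon producers that use TLR7 and TLR9, were grouped with pre-dendritic cells, and this group had 38.7 ± 9.89 CPM (n = 8), against 14.5 ± 6.46 CPM (n = 11) in conventional dendritic cells. Other monocytes followed at 1.60 ± 0.913 CPM (n = 17, adjusted p = 0.000267 against dendritic cells). In neutrophils a single UMI was counted over all 17 dogs, in healthy 7, and in M-MDSC none among 7565721 UMIs of 16 dogs. A count of 0 allows up to 3 UMIs, or 0.397 CPM, so that M-MDSC were at least 3.68-fold lower than the other monocytes of the same dogs. That limit covers counting error only.

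**Figure D2:**
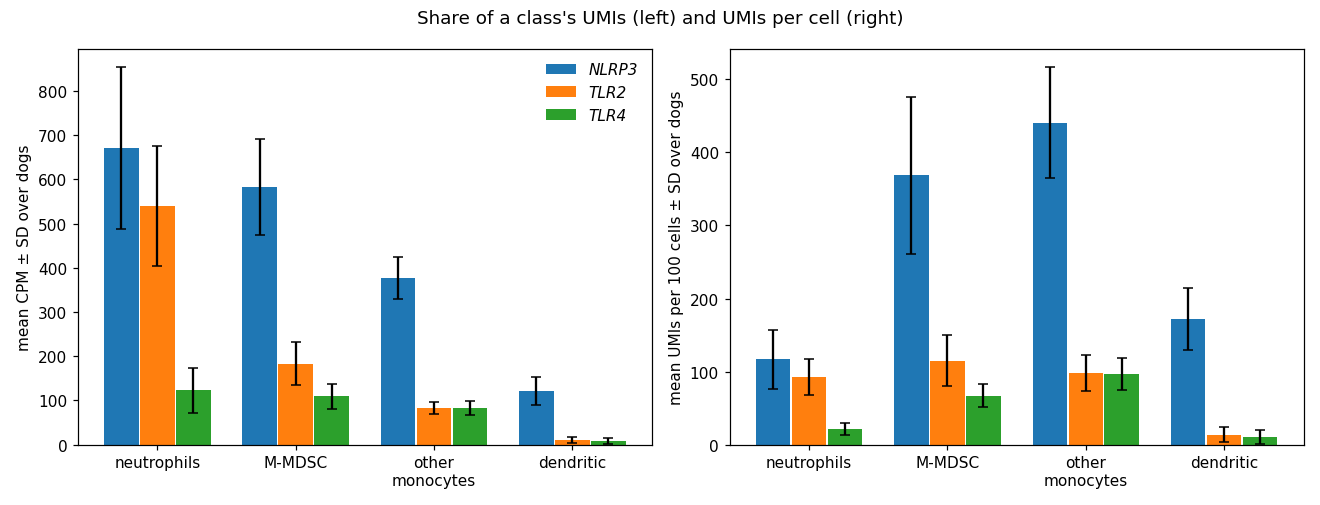
Bars of the mean level of NLRP3, TLR2 and TLR4 in neutrophils, M-MDSC, other monocytes and dendritic cells, as CPM on the left and as UMIs per 100 cells on the right, with the SD over dogs as error bars. Neutrophils led for NLRP3 on the CPM scale (670 CPM) but not per cell (116.5 UMIs per 100 cells, against 440.5 in other monocytes).

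To place M-MDSC against the monocytes they were split from, both sums of a dog were compared within that dog by edgeR's quasi-likelihood test over all genes, and a gene was called at an adjusted p below 0.01 and a log2 fold change beyond 0.58. MEFV rose by 1.85 ± 0.07 (log2 fold change ± SE, higher in 16 of 16 dogs, adjusted p = 1.4e-23), and TLR2 rose by 1.03 ± 0.09 (15 of 16 dogs, adjusted p = 1.59e-13). PYCARD fell, at -1.77 ± 0.10 (lower in 16 of 16 dogs, adjusted p = 2.32e-19), as did CASP12, at -0.73 ± 0.11 (lower in 14 of 16 dogs, adjusted p = 2.05e-07), and TLR7. NLRP3 was at 0.47 ± 0.06 (higher in 16 of 16 dogs) and TLR4 at 0.28 ± 0.08 (12 of 16 dogs), both with an adjusted p below the limit, 5e-09 and 0.00365, but inside the fold limit. The edgeR folds here and below include its scaling between sums (TMM). In log2(CPM + 1), without that scaling, the mean within-dog difference of NLRP3 was 0.603, beyond the limit, and that of TLR4 was 0.367. Thus 2 of the 7 genes were called higher, against 8.52% of the 14008 genes tested, and 3 lower, against 18.8%. Of the 2 called higher, MEFV is on the study's own list for this class in these same dogs, so its call adds no independent evidence. Part of that background can come from how the classes were made, since genes expressed along with the clustering genes differ by construction. That part was not measured. Per cell, M-MDSC held fewer UMIs of NLRP3 (368.5 against 440.5 per 100 cells) and TLR4 (66.9 against 96.5) and more of MEFV (260 against 126).

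All of these calls need the M-MDSC class, which was not found at clustering resolution 0.5 or with members among the clustering genes. Where the class was found, a pair of these calls depended on a setting. TLR7 lost its call under DESeq2 (adjusted p = 0.033) and in the 7 healthy dogs alone (adjusted p = 0.0141), and CASP12 went inside the fold limit when cells were clustered without correction across dogs (-0.53).

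**Figure D3:**
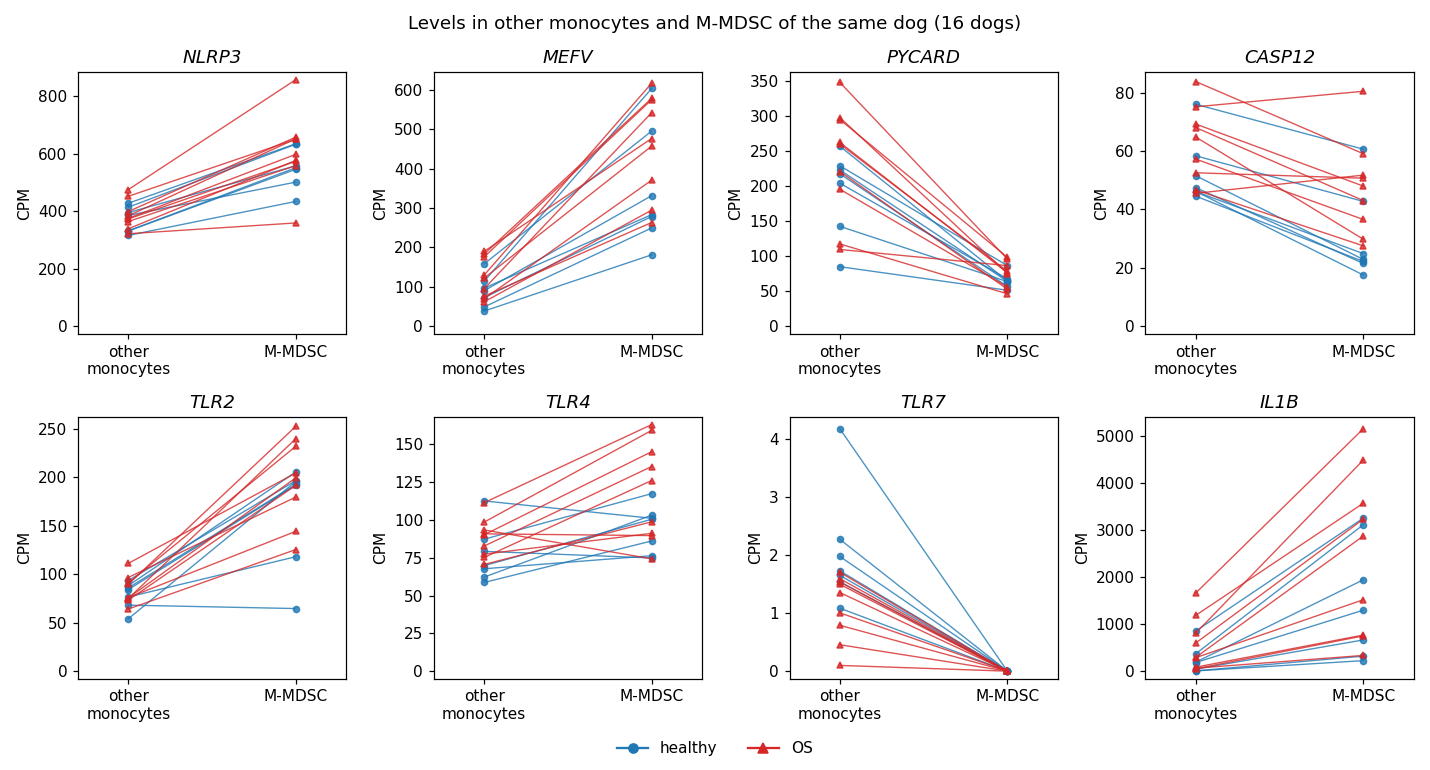
CPM (linear axes from 0) of each of the 7 genes and of IL1B in other monocytes and M-MDSC, with a line joining the 2 classes of each of 16 dogs, circles for healthy dogs and triangles for dogs with OS. All lines rise for MEFV, NLRP3 and IL1B and fall for PYCARD, 15 of 16 rise for TLR2, and TLR7 drops to 0 in M-MDSC in every dog.

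The other genes of the inflammasome and Toll-like receptor pathways, 76 with a row, were taken from a list. That list was chosen with earlier results of these data known. Among the 74 tested, 14 rose and 11 fell in M-MDSC, with a median log2 fold change of 0.23 against -0.18 over all genes. Under DESeq2 the median over all genes was 0.12. The substrates led. IL18 was at 957 CPM against 45.1 CPM in other monocytes (log2 fold change 4.35 ± 0.12), and IL1B at 2098 against 418 CPM (2.79 ± 0.17), both higher in 16 of 16 dogs. Several inhibitors of NF-κB signalling rose with them: TNFAIP3, which encodes the ubiquitin-editing enzyme A20 (1.07 ± 0.08), TNIP3 (1.65 ± 0.18) and the deubiquitinase CYLD (0.86 ± 0.07). By count, 5 of 10 listed inhibitors were called higher and SIGIRR lower (-0.70 ± 0.17), where 8.52% and 18.8% of all genes were, and no test was made of the group. The cytosolic peptidoglycan sensor NOD2 (0.83 ± 0.08), the ubiquitin ligase PELI1 (0.92 ± 0.10) and the gasdermin GSDME (0.86 ± 0.17) also rose. Per cell, 5 of the 14 genes that rose were not above other monocytes on average: IRAK3, NFKB1, RELB, REL and NFKBIZ, named after their values were seen.

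Of the 8 listed caspases and effectors, 3 were called higher in M-MDSC (IL18, IL1B and GSDME, of which the study lists the first 2 for this class) and 2 lower, where 8.52% and 18.8% of all genes were. GSDMD, the pore-forming gasdermin of pyroptosis, fell (-0.69 ± 0.09), and NINJ1, which breaks the plasma membrane after the pore, fell (-1.61 ± 0.14), each lower in 16 of 16 dogs. IRF3 (-1.24 ± 0.11), the receptor chaperone CNPY3 (-0.95 ± 0.11), the kinase BTK (-0.88 ± 0.10) and LY86, the partner of CD180 (-0.70 ± 0.07), fell as well. MYD88 (0.24 ± 0.12), the MD-2 gene LY96 (0.01 ± 0.07) and CASP4 (0.33 ± 0.07) were not called. The neutrophil marker list was higher in M-MDSC than in other monocytes with all 12 of its markers above 0, as given above, and its part in these differences was not tested. In mean CPM, M-MDSC lay between neutrophils and other monocytes for NLRP3, TLR2, TLR4, PYCARD and CASP12, while MEFV (9.35 CPM in neutrophils), IL1B (115 CPM) and IL18 were higher in M-MDSC than in both. TLR7, at 0 in M-MDSC, did not lie between them. Among other pathway genes NOD2 was above both (144 against 74.4 and 73.1 CPM) and IRF3 below both (36.3 against 41.6 and 79.6 CPM).

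Neutrophils against other monocytes gave a wider contrast. TLR2 rose by 2.59 ± 0.10 and NLRP3 by 0.70 ± 0.09 (log2 fold change ± SE, edgeR, each higher in 17 of 17 dogs, adjusted p = 6.6e-21 and 5.26e-08). CASP12 (-4.96 ± 0.27), PYCARD (-4.05 ± 0.14) and MEFV (-3.54 ± 0.24) fell in 17 of 17 dogs, and so did TLR7, at 0.0759 times the pooled level of other monocytes (exact 95% interval 0.00191 to 0.427 from 1 against 221 UMIs). TLR4 at 0.39 ± 0.10 was not called. The calls were 2 of 7 higher against 18.8% of 14156 genes, and 4 of 7 lower against 34.3%. Neither of the 2 genes called higher was higher per cell: NLRP3 was below other monocytes in 17 of 17 dogs (116.5 against 440.5 UMIs per 100 cells) and TLR2 in 11 of 17 (92.8 against 97.5). TLR7 was not called by DESeq2 (adjusted p = 0.0482). Without healthy 7, which holds its single UMI, neutrophils were at 0, which is at least 2.60-fold lower than other monocytes.

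Of 74 other pathway genes 16 rose and 31 fell in neutrophils, where 18.8% and 34.3% of all genes did (median -0.58, or -0.44 with the 5 genes at 3 UMIs or fewer set to their pooled value or floor, against -0.38 over all genes). IL18 was at 627 CPM (3.68 ± 0.24), the adaptor MYD88 at 73.9 against 23.0 CPM (1.59 ± 0.11), and PELI1 (1.65 ± 0.13), TXNIP (1.07 ± 0.11) and TLR6, which pairs with TLR2 (1.25 ± 0.16), also rose. Of the 16 that rose, 15 had fewer UMIs per cell in neutrophils than in other monocytes, TLR6 for example with 6.45 against 18.4 per 100 cells, and IL18 was the exception (112 against 55.0). LY96 at 272 against 170 CPM (0.58 ± 0.08, higher in 17 of 17 dogs) just missed the fold limit. NLRP1 (-5.79 ± 0.22), IRF5 (-4.93 ± 0.20), LY86 (-4.40 ± 0.19), TNFAIP3 (-3.73 ± 0.25), CASP4 (-2.40 ± 0.14) and IL1B (-1.53 ± 0.36) fell.

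In dendritic cells TLR7 rose by 3.56 ± 0.18 against other monocytes (14 of 14 dogs, adjusted p = 4.57e-15). MEFV (-7.04 ± 0.27), TLR4 (-3.86 ± 0.17), TLR2 (-3.51 ± 0.17), NLRP3 (-1.88 ± 0.08) and CASP12 (-0.98 ± 0.10) fell in 14 of 14 dogs. The MEFV value rested on few UMIs, 6 of them in OS 8, and was -7.95 without that dog. PYCARD stayed at -0.12 ± 0.07 (adjusted p = 0.143), although its CPM was higher in 9 of 14 dogs. That is 1 of 7 called higher against 16% of 14088 genes, and 5 lower against 18.5%. The other receptors of endosomes moved in the direction of TLR7. TLR3, for double-stranded RNA, was at 142 against 1.88 CPM (6.01 ± 0.12), TLR9, for CpG DNA, at 21.1 against 0.454 CPM (5.29 ± 0.22), and CNPY3, a Toll-like receptor chaperone, rose by 1.23 ± 0.05. TLR3 and TLR9 were highest in plasmacytoid and pre-dendritic cells, at 286 ± 54.3 and 46.8 ± 22.4 CPM (n = 8), against 58.5 ± 17.6 and 3.87 ± 3.55 CPM (n = 11) in conventional dendritic cells.

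Of 74 other pathway genes 5 rose in dendritic cells and 42 fell, where 16% and 18.5% of all genes did (median -0.73, or -0.71 with the 3 genes at 3 UMIs or fewer at their pooled value or floor, against -0.10 over all genes). The other two that rose, named after their values were seen, were TLR10 at 8.72 against 3.91 CPM (1.11 ± 0.21) and the adaptor gene TICAM2 at 1.56 against 0.458 CPM (1.34 ± 0.42). IL1B (-8.81 ± 0.22, to a mean of 0.741 CPM), LY96 (-2.69 ± 0.11) and NFKBIA (-2.73 ± 0.25), the gene of the NF-κB inhibitor IκBα, fell. IL18 at 62.3 against 38.6 CPM (0.44 ± 0.11) was not called.

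B cells differed from other monocytes in all 7 genes. TLR7 rose by 3.65 ± 0.17 (17 of 17 dogs, adjusted p = 9.47e-17), and MEFV (-8.88 ± 0.16), PYCARD (-8.31 ± 0.17), NLRP3 (-7.83 ± 0.14), TLR4 (-4.21 ± 0.10), CASP12 (-3.48 ± 0.19) and TLR2 (-3.42 ± 0.13) fell in 17 of 17 dogs. The background was 23.4% of 14667 genes higher and 26.4% lower. Of 74 other genes 6 rose and 43 fell (median -0.86 against -0.02 over all genes), with TLR9 at 6.19 against 0.488 CPM (3.38 ± 0.26) and TLR10 at 9.14 against 4.12 CPM (0.80 ± 0.19) among those that rose, both named after their values were seen. TRAF3 (1.79 ± 0.08), the NLRP3 partner NEK7 (1.08 ± 0.06), CASP8 (0.86 ± 0.07) and GSDMD (0.68 ± 0.05, 207 against 97.9 CPM) rose also, although per cell TLR10, CASP8 and GSDMD were lower on average than in other monocytes. NLRP1 (-8.45 ± 0.16), IL1B (-9.16 ± 0.20), CASP4 (-5.76 ± 0.14) and LY96 (-5.33 ± 0.12) fell.

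Monocytes with an interferon signature (12 dogs) were compared with the remaining monocytes, and 0 of the 7 genes were called by edgeR or by DESeq2, against 1.16% of 13661 genes. 2 had an unadjusted p below 0.05, CASP12 at 0.20 ± 0.07 (67.4 against 57.4 CPM, higher in 11 of 12 dogs, adjusted p = 0.0578 by edgeR) and PYCARD at 0.11 ± 0.05 (adjusted p = 0.204), where 17.2% of all genes did. NLRP3 was at 0.01 ± 0.04. None of 74 other pathway genes was called either, although 17 had an unadjusted p below 0.05. MYD88 at 35.8 against 23.5 CPM (0.56 ± 0.10) and GSDMD at 0.30 ± 0.06 had adjusted p below 0.01 but were inside the fold limit.

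Granulocytes resembling polymorphonuclear MDSC (PMN-MDSC), with granule transcripts such as CAMP and MMP8, reached 25 cells in 5 dogs with OS and in no healthy dog. NLRP3 was at 51.0, 31.9, 71.1, 70.3 and 40.7 CPM in those dogs, against a mean of 621 ± 225 CPM in their neutrophils. TLR2 was at 32.4, 123, 21.1, 65.6 and 21.3 CPM against 547.5 ± 196 CPM, and TLR4 at 1.62, 4.56, 5.56, 9.37 and 34.9 CPM against 144 ± 54.6 CPM. All 3 were lower in 5 of 5 dogs and were called by edgeR, at -3.05 ± 0.19, -3.24 ± 0.20 and -3.50 ± 0.31, which made 3 of 5 tested genes against 16.3% of 8515 genes called lower. The fall of TLR4 was larger without OS 9, the dog at 34.9 CPM, at -4.36, and lay between -4.36 and -3.03 when any one dog was left out. An exact sign-flip test over 5 dogs cannot go below 0.0625. PYCARD was at 26.7, 54.7, 24.4, 0 and 27.1 CPM against 17.1 ± 5.52 CPM, higher in 4 of 5 dogs and not called (0.99 ± 0.42, edgeR adjusted p = 0.0431). It was called without OS 7, the dog at 0 with 34 cells (1.40, edgeR adjusted p = 0.00637). In the 64 other genes tested 5 rose and 29 fell, where 15.9% of all genes were called higher and 16.3% lower (median -0.81 against 0.04 over all genes), with IL18 at 0.889 against 588 CPM, TXNIP at 14.9 against 305 CPM and NFKBIZ rising to 282 from 133 CPM. Per cell, 5 of the 29 that fell were higher on average in PMN-MDSC: MYD88, IRAK2, IRAK4, NFKB1 (46.7 against 35.9 UMIs per 100 cells) and TNIP1, named after their values were seen.

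The comparison of dogs with OS and healthy dogs asked whether any of these genes changed within a class with the tumour. In none of neutrophils, M-MDSC, other monocytes, dendritic cells or B cells was a member of the 7 called by edgeR, and 0% of all genes were called in each of these classes. DESeq2 called none of the members either, and 3 of all genes in other monocytes. At an unadjusted p below 0.05 there were 1 of 6 tested members in neutrophils (4.56% of 9723 genes), 2 of 6 in M-MDSC (5.99% of 9784), 1 of 7 in other monocytes (5.88% of 13942), 1 of 7 in dendritic cells (3.73% of 11409) and 1 of 6 in B cells (5% of 12593), all higher in OS. The range of no member was separate between the groups in any class, where this held for 0.0511% of genes in M-MDSC, 0.0143% in other monocytes, 0.0526% in dendritic cells and 0% in neutrophils and B cells. The median log2 fold change of the members tested was 0.13 in neutrophils, 0.36 in M-MDSC, 0.24 in other monocytes, 0.17 in dendritic cells and 0.11 in B cells, against medians between -0.01 and 0.03 over all genes. The 7 genes are not independent of each other, and these medians carry no test.

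CASP12 in B cells had the smallest p of these tests. Healthy dogs held 1.21 to 9.03 CPM with a median of 3.28, and dogs with OS 4.79 to 18.5 CPM with a median of 9.51. The highest healthy dogs overlapped the lower dogs with OS. The log2 fold change was 1.67 ± 0.40 (unadjusted p = 0.000295, edgeR adjusted p = 0.496), with between 3 and 39 UMIs behind the value of each dog with OS. The related CASP4 was at 3.46 ± 1.71 CPM in healthy dogs and 7.90 ± 4.13 CPM in dogs with OS (1.29 ± 0.34, unadjusted p = 0.000816, adjusted p = 0.735). CASP12 was also higher in M-MDSC, at 17.6 to 60.6 CPM with a median of 22.9 in healthy dogs and 27.6 to 80.5 CPM with a median of 48 in OS (0.67 ± 0.27, adjusted p = 0.795), and in other monocytes (0.32 ± 0.14, adjusted p = 0.808). The ranges overlapped in both.

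TLR4 in neutrophils came second. Healthy dogs held 63.8 to 112 CPM with a median of 82.5, and dogs with OS 99.2 to 236 CPM with a median of 131.5. The overlap was narrow, with 3 dogs with OS, at 99.2, 99.4 and 108 CPM, below the highest healthy dog. The log2 fold change was 0.70 ± 0.19 (unadjusted p = 0.00109, edgeR adjusted p = 0.575), and it stayed between 0.57 and 0.79 when any one dog was left out. TLR4 was at 0.43 ± 0.18 in M-MDSC (adjusted p = 0.795) and 0.24 ± 0.13 in other monocytes (adjusted p = 0.862).

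PYCARD in dendritic cells ranged from 198 to 274 CPM in healthy dogs (median 233, n = 6) and from 246 to 334 CPM in OS (median 301, n = 8), a log2 fold change of 0.35 ± 0.12 (unadjusted p = 0.00912, edgeR adjusted p = 1). The share of conventional cells, which hold more PYCARD as given above, varied between dogs, for example 23 of 60 in OS 4 and 24 of 27 in OS 1. Its part in the difference was not tested. MEFV was at 0.48 ± 0.25 in M-MDSC (adjusted p = 0.835) and 0.50 ± 0.27 in other monocytes (adjusted p = 0.872), and NLRP3 did not go beyond 0.22 in size in any class. Among values lower in OS, PYCARD in B cells was at -0.63 ± 0.63 (adjusted p = 0.98) and TLR7 in other monocytes at -0.61 ± 0.39 (adjusted p = 0.875), both beyond the fold limit, from 0 to 7 and 1 to 34 UMIs per dog, and TLR7 in B cells at -0.14 ± 0.21 (adjusted p = 0.994). A p that misses the threshold does not show that the groups are alike.

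Of the other pathway genes, 5 of 67 tested had an unadjusted p below 0.05 in neutrophils, 3 of 68 in M-MDSC, 5 of 74 in other monocytes, 3 of 69 in dendritic cells and 2 of 70 in B cells, beside the shares of all genes given above. TXNIP, which encodes an NLRP3 binding partner and was named after its values were seen, had an unadjusted p below 0.05 in 4 of 5 classes, higher in OS in each (0.94 ± 0.25 in neutrophils, 0.88 ± 0.31 in M-MDSC, 0.82 ± 0.21 in other monocytes and 0.44 ± 0.14 in B cells), with edgeR adjusted p of 0.544, 0.789, 0.774 and 0.911. It was the single pathway gene of 68 tested in at least 4 classes to do so, against 15 of 9913 genes (0.151%), and it was picked for this pattern.

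**Figure D4:**
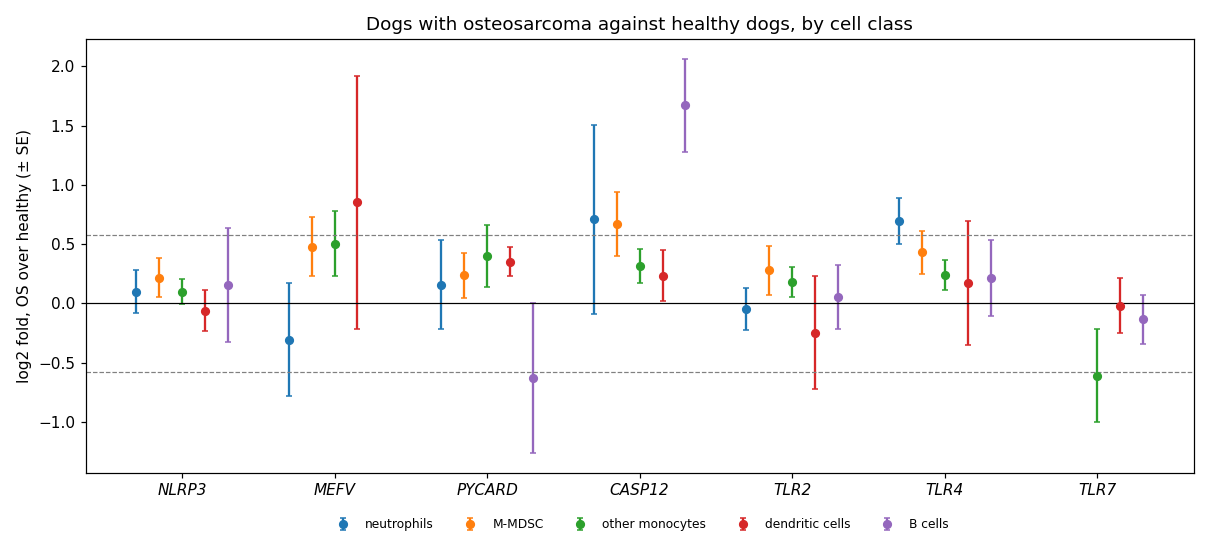
Log2 fold change of OS over healthy dogs with its SE for each gene tested in each of 5 classes, with dashed lines at the fold limit of 0.58 in both directions. CASP12 in B cells (1.67) and in M-MDSC (0.67), TLR4 in neutrophils (0.70) and a few values with wide errors lie beyond a dashed line, and none passed the adjusted p.

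Whether the contrast between classes depended on the disease was tested by permuting the group labels over the within-dog differences in log2(CPM + 1), in 35 tests. None reached an adjusted p of 0.05, and the lowest, 0.0707, was shared by CASP12 in B cells against other monocytes (-3.72 in healthy dogs and -2.51 in OS, exact permutation p = 0.00329) and PYCARD in monocytes with the interferon signature against those without (0.32 and 0.06, exact permutation p = 0.00404). The tests of the interferon signature had 4 healthy dogs and 8 with OS. So few label orders limit how small their p can be, and these tests could hardly pass the adjustment. At an unadjusted p below 0.05 there were 5, and no share over all genes is at hand for this test. Among them was TLR7 in M-MDSC against other monocytes (permutation p = 0.0214). There M-MDSC were at 0 in every dog, so that only the level in other monocytes could differ.

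From dog to dog, the members were set against IL1B, the gene of the main inflammasome substrate, in other monocytes, where IL1B ran from 5.11 through a median of 286.9 to 1664 CPM. MEFV followed it closely, with Pearson r = 0.945 and Spearman rho = 0.929 over 17 dogs (permutation p = 1e-05 for each, the smallest that 100000 permutations can give, adjusted p = 7e-05 over the 7 genes). The relation held in healthy dogs (r = 0.965, rho = 0.964, n = 7, permutation adjusted p = 0.00658 and 0.017), in dogs with OS (r = 0.924, rho = 0.879, n = 10, permutation adjusted p = 0.00322 and 0.0108) and without the 2 dogs farthest from the median of log2(CPM + 1) of IL1B (r = 0.912, rho = 0.896, permutation adjusted p = 0.00021 for each). The 2 dogs left out were healthy 4 and healthy 6, at 5.11 and 5.57 CPM of IL1B. Over all genes of the class, 751 of 13941 (5.39%) had a permutation p adjusted over all of them below 0.05 with IL1B. MEFV (adjusted p over all genes = 0.00141) and TLR2 (0.0482) were among these, the latter close to the threshold, and 18 genes (0.129%) reached the r of MEFV in size.

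Other monocytes are 6 clusters pooled, which differ in both genes: the mean level over dogs ran from 61.6 to 188 CPM for MEFV and from 159 to 864 CPM for IL1B, highest for both in the cluster led by SERPINB2 and THBS1. The make-up of the class varied between dogs: that cluster was 14.2% to 30.2% of it, and the cluster led by S100A5, lowest in both genes, 0.747% to 56.1%. Across dogs the share of a cluster had a Pearson r with IL1B of the class between -0.706, for the cluster led by AHNAK and F13A1, and 0.485, for that led by SERPINB2. For the cluster led by S100A5 it was 0.009. Within each of the 6 clusters, a split chosen after the data were seen, MEFV followed IL1B across the 12 to 17 dogs with at least 25 of its cells, with r between 0.634 and 0.938 and rho between 0.701 and 0.924 (highest permutation adjusted p = 0.0151 for r and 0.00667 for rho). The lowest r was in the cluster led by S100A5 (14 dogs), and the cluster led by SERPINB2 had 0.926 (17 dogs).

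TLR2 was the other gene with an adjusted p below 0.05 for Pearson r (r = 0.683, permutation adjusted p = 0.00784), with a rank correlation of 0.532 (adjusted p = 0.104). It rested on the extreme dogs, since r was 0.438 without the 2 farthest (permutation adjusted p = 0.364) and 0.441 in dogs with OS alone (adjusted p = 0.432), against 0.877 in the 7 healthy dogs (permutation adjusted p = 0.0159). NLRP3 had r = 0.511 (permutation adjusted p = 0.0828). CASP12 (0.366), TLR4 (0.330), TLR7 (-0.341) and PYCARD (-0.315) each had an adjusted p of 0.215. The value of TLR4 changed sign with the dogs used, at 0.585 in healthy dogs, -0.399 in dogs with OS and -0.223 without the 2 farthest dogs (permutation adjusted p = 0.237, 0.432 and 0.495).

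**Figure D5:**
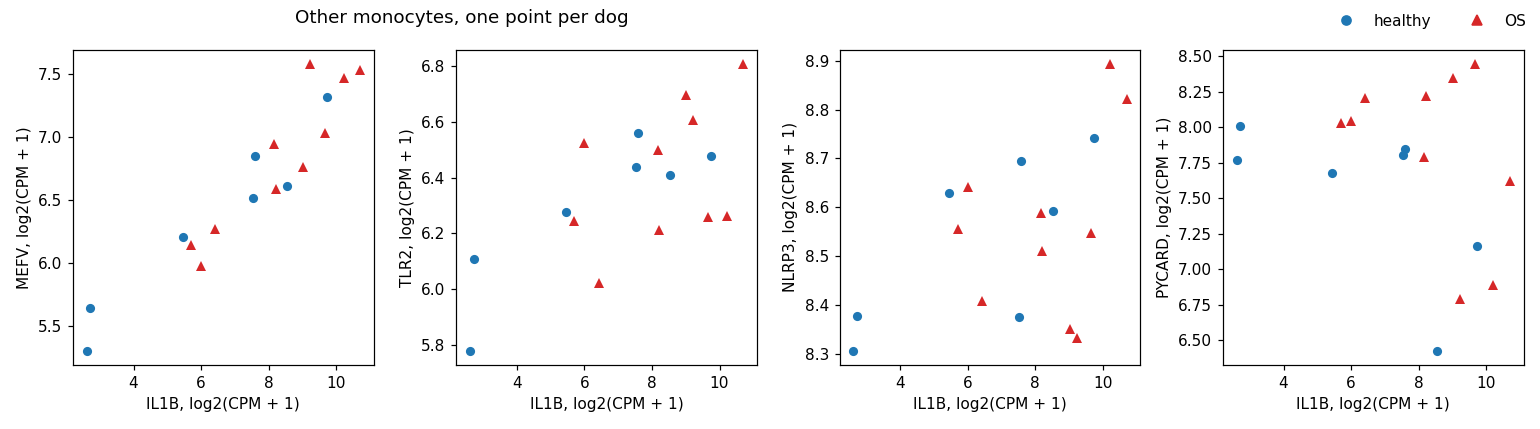
Levels of MEFV, TLR2, NLRP3 and PYCARD against IL1B in other monocytes, all as log2(CPM + 1), with circles for 7 healthy dogs and triangles for 10 dogs with OS. MEFV follows IL1B across both groups (r = 0.945), while the TLR2 relation (r = 0.683) weakens to 0.438 without the 2 dogs of lowest IL1B, and NLRP3 (0.511) and PYCARD (-0.315) scatter more widely.

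Across 134 class-by-dog sums of at least 25 cells the members were also compared with the other 9586 genes that reached a mean of 10 CPM in a class, by Pearson r of log2(CPM + 1). The sums share libraries and classes, so the values are descriptions. Closest to NLRP3 were ENSCAFG00000014493 (r = 0.933), CLEC4E and TREM1 (both 0.922). MEFV was most like HGF (0.915), NUAK1 (0.914) and TRIM16 (0.905), and PYCARD most like CD300H (0.908), HNMT (0.883) and MMP14 (0.882). TLR2 was most like CLEC5A (0.910), CSF3R (0.904) and CDA (0.901), and TLR4 most like CLEC4E (0.901), SLC11A1 (0.885) and KCNJ2 (0.867). CSF3R and KCNJ2 are among the markers used to name classes. TLR7 was most like SYNPO (0.910), MYBPC2 (0.856) and AK8 (0.853), and CASP12, which spreads over monocytes, dendritic and T cells, had the lowest likeness, to GNB4 (0.846), SBF2 and SSBP2 (both 0.842).

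Among the members themselves NLRP3 and TLR4 were the most alike pair (r = 0.827), followed by NLRP3 with TLR2 (0.798) and TLR2 with TLR4 (0.782). NLRP3 and PYCARD followed at 0.751 over all classes, although by CPM NLRP3 was higher and PYCARD lower in M-MDSC than in other monocytes. Per cell both were lower in M-MDSC. TLR7 had negative values with NLRP3 (-0.272), MEFV (-0.382), TLR2 (-0.329) and TLR4 (-0.318).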

How the data were processed

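Leukocytes of 7 healthy dogs and 10 dogs with OS were measured by droplet single-cell RNA sequencing, with 1 library per dog. Per the labels and the study's methods, the authors aligned reads to CanFam3.1 with Cell Ranger 7.0.0, and the deposited matrices hold raw UMI counts per gene and barcode. Intronic reads were counted in some of the authors' runs, and whether they are in these matrices is not given in the sources used here. 0 columns of other samples were left aside.

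The study's limits left 84345 of 93013 barcodes (200 to 4500 genes, 500 to 20000 UMIs, bounds excluded, and a mitochondrial share below 10%). Doublets were ranked by Scrublet in scanpy 1.11.5 and 3938 were removed at an expected 0.8% per 1000 barcodes, where the automatic threshold gave 1489. The remaining cells were clustered on 2000 variable genes, 30 principal components corrected across dogs, 20 neighbours and Leiden resolution 1. Marker-list thresholds for names were set after clusters were seen. Mixed droplets (1188), platelet and erythrocyte clusters (3537) and unnamed cells (385) were left out.

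UMIs were summed per dog and class (at least 25 cells, genes with at least 10 UMIs) and tested with edgeR 4.0.16 (TMM, quasi-likelihood, Benjamini-Hochberg over all genes tested), with dog as a block between classes. The study used DESeq2 on such sums, which is here an alternative (version 1.42.0), beside other filters, cell limits, covariates and clusterings and each dog left out. Scripts were tested on simulated counts. Dogs are separate replicates and their numbers only name them. The members and lists were chosen with earlier results of these data known. Besides the members, the text names IL1B, IL18, GSDMD, MYD88 and LY96, up to 8 called pathway genes with the largest change per direction at a mean of at least 10 CPM in a class, and the 3 genes most like each member. CASP4 was followed for its synonym. Depth limits low values: intervals and floors cover counting error only. Symbols were matched to RefSeq's UU_Cfam_GSD_1.0 table for synonyms only, and no coordinates or sequences are given.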

Additional observations from a re-analysis of the deposited data

Results flagged for a closer look

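Among 75 groups of 4 to 10 dogs, 10 held a value that lay farther from the others than Dixon's 95% critical value allows. Chance gives about 1 in 20 for normally distributed values, a rate that does not hold for counts near 0. A single dog above 0 among dogs at 0 is always flagged, as for TLR7 in neutrophils and MEFV in PMN-MDSC below. In M-MDSC of dogs with OS, NLRP3 was lowest in OS 3, at 359 CPM from 27 cells, against 558 to 857 CPM in the others. In dendritic cells MEFV was highest in OS 8, at 7.58 CPM from 6 UMIs in 47 cells, against 0 to 1.16 CPM. TLR2 there was highest in healthy 1, at 24.8 CPM from 10 UMIs in 28 cells, against 5.83 to 9.82 CPM in the other healthy dogs. TLR7 was lowest in OS 1, at 7.33 CPM from 2 UMIs in 27 cells, against 17.3 to 35.4 CPM. These dendritic cells were 24 conventional and 4 plasmacytoid or pre-dendritic in healthy 1, and 24 and 3 in OS 1. The part of this mix in the flagged values was not tested.

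The other flagged values of genes also rested on few UMIs. MEFV in PMN-MDSC was at 3.33 CPM in OS 5 and at 0 in the other 4 dogs, and PYCARD there was at 0 CPM in OS 7 against 24.4 to 54.7 CPM. PYCARD in neutrophils was at 0 CPM in healthy 2 (107 cells, others 6.83 to 21.5 CPM) and at 0 CPM in OS 3 (56 cells, others 8.82 to 22.7 CPM). TLR7 in neutrophils was at 0.313 CPM in healthy 7, which is a single UMI in 1693 cells, and at 0 in the other 6 healthy dogs. The share of neutrophils was 37.0% in healthy 7 against 1.60% to 6.30% in the other healthy dogs. No difference between groups in a within-dog contrast passed an adjusted p of 0.05 in 35 tests.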

How the results depend on the processing

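Of 1926 member values under the alternatives, 1870 kept their direction and side of the thresholds, 4 lost a call, 4 gained one and 48 turned direction, all 48 in values that were not called. The alternative clusterings took their class names from the main clustering, by the majority of each cluster's cells, so they do not test the naming. Leaving out any one dog left the number of called members at 5 for M-MDSC, 6 for neutrophils, 6 for dendritic cells, 7 for B cells and 0 for the interferon signature and every comparison of OS with healthy dogs. PMN-MDSC against neutrophils gave 3 to 4 without a dog, and 5 of 6 with at least 10 cells (8 dogs), as MEFV (-2.86) and PYCARD (1.36) were then called. Over all genes the number called in that comparison also rose with that limit, from 2743 to 3055. PYCARD was called there with doublets kept as well (1.70). With IL1B, the correlated members fell from 2 to 1 in dogs with OS only and to 1 without the 2 dogs farthest from the median IL1B level. The neighbouring classes that differed numbered 22 of 35, and 22 or 23 under the alternatives.

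The log2 fold changes that turned in OS against healthy dogs were as follows. In neutrophils MEFV turned to 0.11 at resolution 0.5 and to 0.11 with members among the clustering genes. In dendritic cells NLRP3 turned to 0.037 with age as a covariate, 0.017 with sex and 0.15 with the replicate block. TLR4 turned to -0.037 under DESeq2, -0.27 with 10 cells, -0.23 with sex, -0.44 with the replicate block and -0.22 without correction across dogs, and TLR7 to 0.084 with age, 0.047 with sex, 0.027 without correction and 0.08 with doublets kept. In B cells TLR4 turned to -0.12 with the replicate block and TLR2 to -0.002 with doublets kept. Without single dogs TLR2 ranged from -0.15 to 0.004 in neutrophils and -0.088 to 0.24 in B cells, TLR7 from -0.14 to 0.074 in dendritic cells and -0.23 to 0.079 in B cells, NLRP3 from -0.14 to 0.047 and -0.15 to 0.29 in these 2, and TLR4 from -0.12 to 0.58 in dendritic cells. The replicate number, which only names dogs, left 0 members called as a block in each comparison of OS with healthy dogs.

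For the interferon signature, NLRP3 turned to -0.005 with no filter, -0.013 with 10 cells, -0.022 in healthy dogs, -0.005 at resolution 1.5 and -0.048 with members among the clustering genes, TLR4 to -0.033 in healthy dogs, and TLR2 (-0.063), TLR4 (-0.047) and TLR7 (0.59) turned with members among the clustering genes. Without single dogs NLRP3 ranged from -0.02 to 0.022 and TLR2 from -0.021 to 0.057. The cause of these turns was not tested. Resolution 0.5 and members among the clustering genes gave no M-MDSC class, resolution 0.5, no correction and doublets kept gave no class with the interferon signature, and no healthy dog had enough PMN-MDSC, so those alternatives have no value. DESeq2 size factors in edgeR moved the median of all genes from -0.38 to -0.49 in neutrophils and from -0.10 to 0.02 in dendritic cells against other monocytes, with no member changing direction. Under DESeq2 itself that median was 0.12 in M-MDSC (-0.18 by edgeR), -0.02 in neutrophils, 0.15 in dendritic cells and 0.18 in B cells. The alternatives that left out clusters with the interferon signature, and the relation of MEFV to IL1B within clusters (r 0.634 to 0.938), were chosen after seeing the data. Depth limits the members with few UMIs, TLR7 in monocytes and all members in small classes.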
